A study of Mus musculus with 121 samples.

Results

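The genes described here are 10 genes of the mechanistic target of rapamycin complex 1 (mTORC1) pathway: Mtor, Rptor, Rheb, Tsc1, Tsc2, Rps6kb1, Eif4ebp1, Ddit4, Deptor and Sesn1. The rule for choosing them names genes of the pathway and uses no measured value, but it was written with earlier results of these data known. All 10 were found among the 31053 genes listed in the files, and all 10 passed the filter on low counts, which kept 13292 genes with a CPM (counts scaled to a library total of 1000000) of at least 1 in at least 3 libraries. The samples were cultures of an immortalized mouse-ear fibroblast line that carries a PER2::LUC reporter knocked into the Per2 gene. All of them were at passage P25, and they came from 1 line, so animals were not sampled. The cultures then received 3 daily cycles of media: HL gave 12 h of a high glucose and insulin medium and then 12 h of a low one, LH gave the same media in the opposite order, and HH gave the high medium throughout. The high medium held 25 mM glucose and the low medium 2 mM. After 12 h without further changes, RNA was collected 6 times at intervals of 4 h. Times here count from the first collection and rest on the collection number in the sample titles alone, since the hour that the titles also carry does not rise in steps of 4 h (collections 2 and 5 both carry 12, and in LH collections 3 and 6 both carry 16). The 3' end counts came from 62 libraries (21 HL, 22 LH and 19 HH), with 2 to 4 libraries for each treatment and collection.

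mTORC1 is a protein kinase complex at the lysosome that promotes protein synthesis and cell growth when amino acids, glucose and insulin are present. Its kinase is the product of Mtor, and Raptor (Rptor) is the subunit that brings substrates to it. The small GTPase Rheb switches the kinase on, the TSC1 and TSC2 proteins switch Rheb off, and insulin signalling releases that brake. S6 kinase 1 (Rps6kb1) and 4E-BP1 (Eif4ebp1) are its main substrates, 4E-BP1 holding back cap-dependent translation until it is phosphorylated. REDD1 (Ddit4), DEPTOR and sestrin 1 (Sesn1) restrain the complex: REDD1 acts through TSC, DEPTOR binds the kinase itself, and sestrins act through the amino acid sensing branch. Most of this control is exerted on proteins, by phosphorylation and binding, and transcript counts do not measure kinase activity.

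Promoter sequence is shown for Sesn1, Ddit4, Rheb and Rps6kb1, whose values are given in most detail below. RefSeq promoter windows of 300 bases on GRCm38.p6, from 250 bases before to 50 bases after the start site, were matched for 8 of the 10 genes. The letters CACGTG (E-box), TGACGT (core of the cAMP response element), TGATGNAA (ATF4 composite), GTAAACA (FoxO element), GCGTG (hypoxia element), TTATGNAA (D-box) and the glucocorticoid element were searched on both strands, and capitals mark a match. No 2 matches overlapped in the 9 windows.

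Sesn1 promoter 1, chr10:41810324-41810623, plus strand: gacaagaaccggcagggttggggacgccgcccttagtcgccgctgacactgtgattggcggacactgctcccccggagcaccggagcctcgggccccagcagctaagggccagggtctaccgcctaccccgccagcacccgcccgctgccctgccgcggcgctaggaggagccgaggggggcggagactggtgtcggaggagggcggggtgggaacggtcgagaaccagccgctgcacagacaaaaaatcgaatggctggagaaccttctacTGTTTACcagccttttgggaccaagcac

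Ddit4 promoter, chr10:59951721-59952020, minus strand: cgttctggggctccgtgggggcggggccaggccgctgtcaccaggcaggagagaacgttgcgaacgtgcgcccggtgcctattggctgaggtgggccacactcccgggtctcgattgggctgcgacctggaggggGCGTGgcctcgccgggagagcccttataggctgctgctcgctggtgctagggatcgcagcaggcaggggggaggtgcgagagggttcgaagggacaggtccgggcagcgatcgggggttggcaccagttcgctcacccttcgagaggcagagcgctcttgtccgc

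Rheb promoter, chr5:24842312-24842611, minus strand: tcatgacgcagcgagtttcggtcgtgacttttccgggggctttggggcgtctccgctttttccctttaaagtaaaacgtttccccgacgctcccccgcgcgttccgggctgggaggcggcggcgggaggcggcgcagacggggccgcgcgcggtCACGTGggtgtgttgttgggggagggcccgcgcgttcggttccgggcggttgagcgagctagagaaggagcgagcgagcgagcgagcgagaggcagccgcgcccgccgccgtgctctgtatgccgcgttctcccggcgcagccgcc

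Rps6kb1 promoter, chr11:86544758-86545057, minus strand: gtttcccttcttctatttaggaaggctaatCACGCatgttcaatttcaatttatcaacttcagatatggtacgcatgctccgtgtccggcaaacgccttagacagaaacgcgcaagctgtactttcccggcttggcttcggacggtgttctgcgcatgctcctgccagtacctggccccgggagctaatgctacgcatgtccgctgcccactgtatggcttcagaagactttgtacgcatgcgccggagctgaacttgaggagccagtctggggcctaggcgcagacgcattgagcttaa

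The first Sesn1 promoter held the FoxO letters from 22 to 28 bases after the start site, a match found in 3.65% of 32851 promoter windows. In Rheb the E-box letters lay 96 to 91 bases before the start, and 7.15% of all windows held them. The Ddit4 window held the hypoxia letters 115 to 111 bases before the start, and they occurred in 32.4% of all windows and also in the windows of Rptor, Tsc1, Tsc2, Rps6kb1 and the second Sesn1 promoter. No match to the D-box (3.38% of all windows), glucocorticoid (0.00913%), ATF4 (3.97%) or cAMP (7.51%) letters lay in these windows. A match is a description of the letters and not a site shown to be used.

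Library totals lay between 3391603 and 9785826 counts in HL, between 104912 and 8154566 in LH and between 3687321 and 11619095 in HH. The lowest total was that of LH collection 2 replicate 2, in which the 10 genes had between 1 and 21 counts each. Fibroblast markers were abundant in every library, with a summed level between 9861 and 38620 CPM. The summed level was 0 to 4.57 CPM for 5 epithelial markers (Krt5 at 0 in all 62 libraries, Cdh1 in 2), 0 to 13.7 CPM for 5 muscle and nerve markers (Myod1 at 0 in all 62, Tubb3 in 1) and 1.42 to 124 CPM for 4 leukocyte markers, whose highest value, with Ptprc at 76.3 CPM, was that of LH collection 2 replicate 2. Of 3 endothelial markers, Pecam1 was at 0 in 33 libraries and Cdh5 in 49, but Kdr was detected in every library at a mean of 172 CPM. The HH library of collection 6 replicate 3 stood apart in 5 of the 10 genes: Mtor, Tsc2, Rps6kb1 and Deptor were below and Rheb was above every other HH library, and the HH calls that change without it are given both ways. By its median correlation with the other libraries it was among the lowest of the 62 (0.881), as were LH collection 2 replicate 2 (0.794) and replicate 1 (0.827), HL collection 2 replicate 3 (0.862), HL collection 5 replicate 2 (0.895), LH collection 2 replicate 4 (0.914) and HL collection 6 replicate 3 (0.917). Names were a further limit. Treatment and collection were taken from the sample titles, but the read summary of the study gives 35 libraries another name by their library number and does not list 5, all of them HL or LH. For HH both sources agree on every name, so the HH levels do not depend on this choice. Tests in HH do depend on it, since all treatments share 1 estimate of the spread. By titles 0.293% of all genes changed over collections in HH and by library numbers 0.803% did, with 0 of the 10 genes in both.

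Over all 62 libraries the median was 17.3 CPM for Mtor, 18.5 CPM for Rptor, 33.7 CPM for Rheb and 73.3 CPM for Rps6kb1, the substrate kinase. Among the brakes, it was 24.4 CPM for Tsc1, 43.0 CPM for Tsc2, 57.5 CPM for Ddit4, 154 CPM for Deptor and 23.4 CPM for Sesn1, and for the substrate Eif4ebp1 it was 38.6 CPM. For most of the genes the coefficient of variation over libraries lay between 18.1% (Rps6kb1) and 30.6% (Deptor). Sesn1 was the exception at 91.1%, with a lowest level of 9.53 CPM and a highest of 171 CPM. Some neighbours can share reads with these genes if strand was not used in counting, which the sources used here do not state. Pkd1 overlaps the 3' end of Tsc2 by 693 bases on the opposite strand and had a mean of 283.9 CPM, Rnft1 overlaps that of Rps6kb1 by 155 bases at a mean of 8.08 CPM, and the antisense gene Rptoros within Rptor was at 0.

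**Figure D1:**
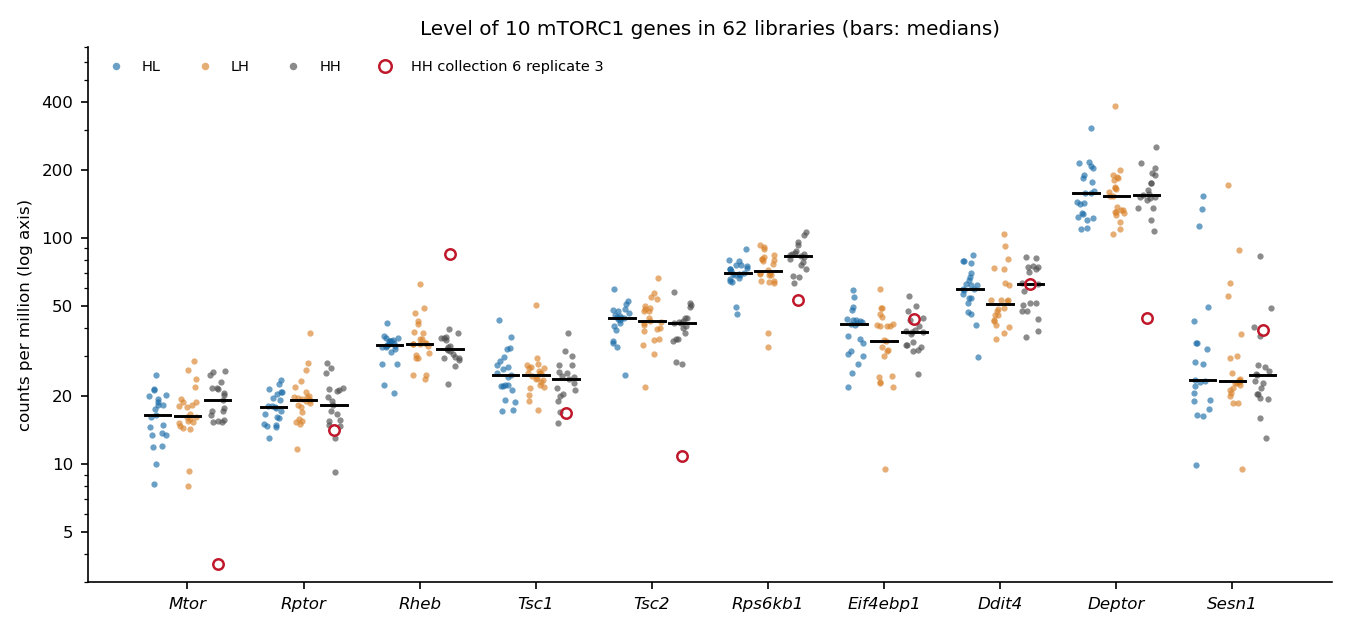
Level of each gene in CPM on a log axis, with 1 point for each of 62 libraries, coloured by treatment, and a bar at the median of each treatment. The ranges of the 3 treatments overlap for every gene, Sesn1 has a tail of high libraries in each treatment (up to 154 CPM in HL, 171 CPM in LH and 83.2 CPM in HH), and the red rings show the HH library of collection 6 replicate 3, low for Mtor, Tsc2 and Deptor and high for Rheb.

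The first question was whether these transcripts changed over the 6 collections, as clock-controlled genes do. By the quasi-likelihood F test of edgeR, none of the 10 genes changed in HH, HL or LH at an adjusted p under 0.05, against a background of 0.293%, 0.301% and 2.93% of all genes tested. DESeq2 called 0 of the 10 as well, where it called 1.19%, 0.939% and 5.8% of the genes to which it gave an adjusted p. In HH, 2 of the 10 had an unadjusted p under 0.05, where 8.61% of all genes did. The rhythm test JTK called 0 of the 10 at P under 0.01 in any treatment, where 1.25% of all genes were called in HH, 0.474% in HL and 0.918% in LH. Clock genes measured in the same libraries did change: 6 of 8 clock reference genes passed the same F test in HH and 4 of 8 in HL and in LH. JTK at P under 0.01 called 7 of the 8 in HH, 4 in LH and 2 in HL. By titles it thus left most of these clock genes uncalled in HL. By library numbers JTK called 1.06% of all genes in HL and 1.36% in LH, and 0 of the 10. With simulated rhythms of 2-fold from trough to peak in 200 of 13292 genes, the HH F test found 108 and JTK found 135. The F test called 1 gene that had not been changed and JTK called 34. Rhythms of 2-fold or less could thus have been missed.

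Ddit4, which encodes the TSC-activating brake REDD1, had the smallest JTK P of the 10 genes in HH. At 0 h its 4 libraries held 72.8, 82.7, 74.9 and 81.4 CPM. At 16 h its 3 libraries held 36.6, 47.7 and 47.5 CPM, all lower than those at 0 h. The mean was 78.0 ± 4.82 CPM (SD, n = 4) at 0 h and 43.9 ± 6.35 CPM (n = 3) at 16 h, a ratio of 1.77, and at 20 h it was 59.1 ± 5.36 CPM (n = 4). These 2 times were picked as the highest and the lowest of 6, so the difference is a description. In between, the libraries of 1 collection spread widely, from 38.7 to 74.6 CPM at 4 h and from 44.0 to 70.8 CPM at 12 h. JTK, which is an exact test on ranks, gave P = 0.0369 with a peak at 2 h and an adjusted P of 1, and the edgeR F test gave an adjusted p of 0.706. At P under 0.05 Ddit4 was the 1 gene of the 10 that JTK would call in HH, where 3.72% of all genes would be, and 0 of the 10 would be in HL and LH, where 1.93% and 3.26% would be. Without the library that stood apart the exact JTK P was 0.0508. In HL and LH the exact JTK P of Ddit4 was 1.

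Eif4ebp1, the translation repressor, had the next smallest JTK P in HH. Its mean was 45.01 ± 5.06 CPM (SD, n = 4) at 0 h, 32.0 ± 9.70 CPM (n = 2) at 12 h and 32.8 ± 1.72 CPM (n = 3) at 16 h, and it was 41.0 ± 3.10 CPM (n = 4) at 20 h. Its exact JTK P in HH was 0.0667, and 0.123 without the library that stood apart, neither of which passed the threshold.

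Rheb, the activator, had the smallest p of the F test in HH (edgeR, adjusted p = 0.302), and this rested on 1 library. At 20 h its 4 HH libraries held 29.8, 39.7, 84.8 and 36.2 CPM, and the other 15 HH libraries lay at or under 38.0 CPM. Without the library at 84.8 CPM, the adjusted p was 0.9998. Rptor, which encodes the scaffold, followed with an adjusted p of 0.472. Its HH libraries at 20 h held 18.2, 9.26, 14.1 and 14.8 CPM, and those at 16 h held 26.6, 18.9 and 21.2 CPM, which are all higher. The highest mean was that of 12 h, where the 2 libraries held 16.7 and 28.1 CPM and overlapped those at 20 h. Without the library that stood apart, Rptor (adjusted p = 0.670) and Rps6kb1 (adjusted p = 0.702) were the 2 genes with an unadjusted p under 0.05, where 6.76% of all genes were.

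**Figure D2:**
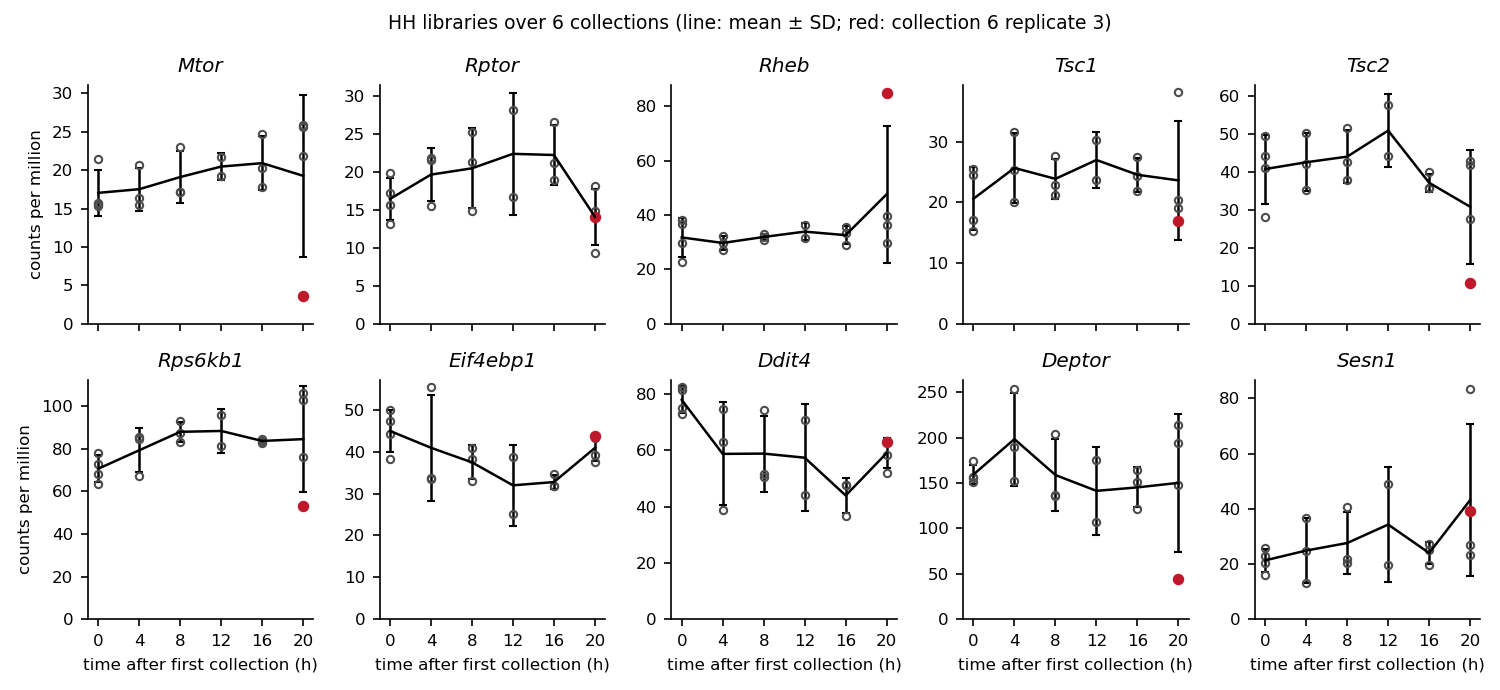
CPM of the 10 genes in HH at 6 times after the first collection, with circles for libraries and a line for the mean ± SD of 2 to 4 libraries. Ddit4 and Eif4ebp1 were high at 0 h and lower at 16 h, and the red point at 20 h is the library that stood apart, which widens the error bars of Mtor, Rheb, Tsc2 and Deptor there.

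In LH, 6 of the 10 genes had an unadjusted p under 0.05 (Rptor, Rheb, Tsc1, Rps6kb1, Deptor and Sesn1), against 16.9% of all genes. For these 6 the most extreme mean was that of the 4 h collection, the highest for 5 of them and the lowest for Rps6kb1. That collection holds the library with 104912 counts and a second library, replicate 1, with 171 CPM of Sesn1, 384 CPM of Deptor and 50.5 CPM of Tsc1. Of the 10 genes, 1 was under 0.05 without LH replicate 1, where 9.68% of all genes were, and 4 were without the library of 104912 counts, where 18.2% were. By library numbers the count was 0 in LH, where 14.3% of all genes were under 0.05, the smallest p being that of Rptor. In HL, Tsc1 (adjusted p = 0.524) and Sesn1 (adjusted p = 0.523) were under 0.05 by titles, where 8.98% of all genes were, and 0 of the 10 were by library numbers, where 5.49% were.

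The next comparison asked whether the mean level over all collections differed between treatments. With the thresholds of the study (p under 0.01 over the 3 treatments and p under 0.05 for the pair), 0 of the 10 genes were called for LH against HL, HH against HL or HH against LH, where 1.16%, 1.2% and 0.91% of all genes were. At an unadjusted p under 0.05 for the pair alone, 0, 1 and 1 of the 10 were, where 5.69%, 7.42% and 5.23% of all genes were, and DESeq2, by the thresholds of the study, called 0, 1 and 1, where it called 1.26%, 1.22% and 0.873% of all genes. The 1 gene in each case was Rps6kb1. By library numbers 2 (Tsc1 and Deptor), 1 (Rps6kb1) and 4 (Tsc1, Rps6kb1, Deptor and Sesn1) had an unadjusted p under 0.05 for the pair, where 7.63%, 3.62% and 10.2% of all genes did. Both thresholds of the study were passed by 0 of the 10, and by 1.34%, 0.568% and 1.63% of all genes. With replicate number as a further term, a fit added after seeing the data, 1 (Tsc1), 1 (Rps6kb1) and 2 (both) passed them by library numbers. Of all genes 1.91%, 0.833% and 2.34% then did.

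Rps6kb1, the S6 kinase gene on chromosome 11 (86498871 to 86544805, minus strand, GRCm38), had by titles the smallest p of the 10 for HH against each alternating schedule. Its level lay between 52.99 and 106 CPM in HH (median 83.5), between 46.4 and 89.4 CPM in HL (median 70.2) and between 33.0 and 93.5 CPM in LH (median 71.2). The 3 ranges overlapped. The log2 fold change was 0.18 (SE 0.07, 95% interval 0.04 to 0.32) for HH minus HL, with an adjusted p of 0.557 by edgeR. For HH minus LH it was 0.17 (SE 0.07, 95% interval 0.04 to 0.31), with an adjusted p of 0.883. The unadjusted p of the pairs passed 0.05, but that of the test over the 3 treatments missed the threshold of 0.01. In HH collection 6 replicate 3 Rps6kb1 was at its lowest, 52.99 CPM, and without that library, a choice made after seeing the data, the log2 fold changes were 0.21 and 0.20, the test over treatments passed its threshold and both pairs were called, as were 1.39% and 1.0% of all genes. Mtor had a log2 fold change of 0.21 for HH minus LH without it (SE 0.10). That pair of Mtor then passed the unadjusted threshold of 0.05, which it missed with all libraries. The test over the 3 treatments missed 0.01 for Mtor, so by the thresholds of the study it was not called. By library numbers those of Rps6kb1 were 0.17 and 0.16.

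For the other 9 genes the intervals of the 3 differences included 0 by titles. Those of Mtor were -0.24 to 0.24 for LH minus HL and -0.10 to 0.39 for HH minus HL on the log2 scale. The brake Tsc2 was -0.38 to 0.03 for HH minus HL, and Tsc1 was -0.37 to 0.08. Sesn1 had the widest interval, -1.03 to 0.12 for HH minus HL, and its log2 fold change of -0.45 was -0.77 without HH replicate 4 and -0.14 without HL replicate 2. By library numbers the interval of Tsc1 was 0.08 to 0.53 for LH minus HL and -0.52 to -0.07 for HH minus LH. That of Deptor was 0.07 to 0.60 and -0.56 to -0.03, and that of Sesn1 for HH minus LH was -1.22 to -0.03. These intervals leave room for differences of the size seen for Rps6kb1 in most of the genes, and a p above the threshold does not show that the treatments were alike. With simulated level differences of 1.5-fold between LH and HL in 200 of 13292 genes, the thresholds of the study found 194 of them and called 80 genes that had not been changed.

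**Figure D3:**
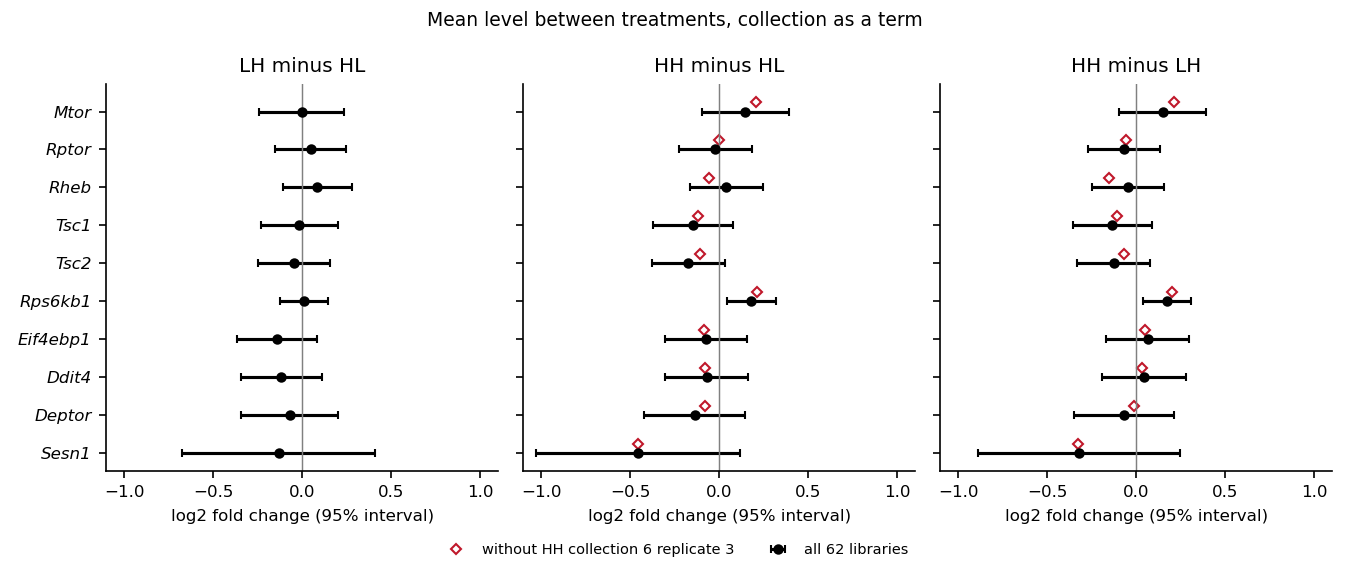
Log2 fold change of each gene between treatments, with black points and 95% intervals from 62 libraries and red diamonds without HH collection 6 replicate 3. Rps6kb1 is the gene whose interval lies above 0 in both comparisons with HH (0.18 and 0.17), and every interval for LH minus HL, by titles, includes 0.

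The difference in the 24 h rhythm between treatments was tested directly, as an interaction. None of the 10 genes passed an adjusted p under 0.05, where 0.0677% of all genes did for LH against HL, 0.015% for HH against HL and 0.0527% for HH against LH. The smallest edgeR p values were those of Rptor between HH and LH (adjusted p = 0.342) and Tsc1 between LH and HL (adjusted p = 0.471). At an unadjusted p under 0.05, 2 genes were called in each pair, where 7.21%, 9.91% and 9.61% of all genes were. Without HH collection 6 replicate 3, 0 of the 10 passed the adjusted threshold in any pair, where 0.0829%, 0.0151% and 0.0452% of all genes did. With a simulated 2-fold rhythm in one treatment, the test of HH against HL found 68 of 200 genes and called 2 that had not been changed.

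Sesn1, on chromosome 10 (41809935 to 41908424, plus strand, GRCm38), had the widest spread over libraries, and 10 of its 12 highest libraries were replicate 4 by library number. The comparison of replicate numbers was chosen after this had been seen. The methods of the study state at least 3 independent biological experiments for each condition, but the sources used here do not say whether a replicate number marks the same experiment in every collection. In HH, where the names are not in doubt, the 5 libraries of replicate 4 held 16.1, 36.7, 40.6, 49.1 and 83.2 CPM of Sesn1 in collections 1, 2, 3, 4 and 6. The other 14 HH libraries held between 13.0 and 39.1 CPM. In every collection but the first, replicate 4 was above all other libraries of its collection, and in the first it was below them.

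The edgeR F test over the 4 replicate numbers in HH, with collection as a term, gave an adjusted p of 0.171 for Sesn1, and 0 of the 10 genes passed, against 0.519% of all genes. Of the 10 genes, 2 (Ddit4 and Sesn1) had an unadjusted p under 0.05, where 8.34% of all genes did. Replicate 4 against all other HH libraries together, with collection as a term, gave a log2 fold change of 0.86 for Sesn1 (SE 0.20, edgeR adjusted p = 0.0232). Among all genes 1.14% were called higher and 0.421% lower in replicate 4. This contrast was picked because replicate 4 was seen to be high, so its p is a description. Without HH collection 6 replicate 3 the log2 fold change was 0.91 (SE 0.19), and Deptor was then called too (0.39, SE 0.09), where 1.93% of all genes were called higher and 1.35% lower. By the F test without that library 0 of the 10 genes passed, where 1.11% of all genes did, and 3 had an unadjusted p under 0.05, where 10.2% did.

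The names that go with the library numbers gave a like order in the other 2 treatments, and which of the 2 sets of names is right is not settled here. By these names, replicate 4 of Sesn1 was above every other library in 5 of 5 collections in HL, 5 of 5 in LH and 4 of 5 in HH. In HL replicate 4 held between 29.4 and 88.7 CPM (median 55.4) and the others between 18.6 and 37.5 CPM. In LH, replicate 4 held 34.3, 42.9, 154, 134 and 171 CPM, and none of the 14 other libraries reached 28.3 CPM. The log2 fold change was 1.22 (SE 0.16) in HL and 2.47 (SE 0.22) in LH. These comparisons have a high background, with 5.68% and 14.7% of all genes called higher in replicate 4 and 6.86% and 11.9% lower. The F test over the replicate numbers called 3 of the 10 genes in HL, where it called 10.8% of all genes, and 4 in LH, where it called 10.9%. Unadjusted, 5 of the 10 were under 0.05 in each, where 23.6% and 24.4% of all genes were. By titles 0 of the 10 genes, and 0 of all 13292, were called in HL or LH, and 2 and 0 of the 10 had an unadjusted p under 0.05, where 9.12% and 1.86% of all genes did. Of these 10 HL and LH libraries, 1 was also replicate 4 by title, the others were replicates 1 to 3, and 8 carried the other treatment. By titles replicate 4 was above the others in 5 of 17 collections and below them in 5. Of the 12 libraries highest in Sesn1, 10 were replicate 4 by number, 3 were by title, and 2 had a number that is not listed.

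**Figure D4:**
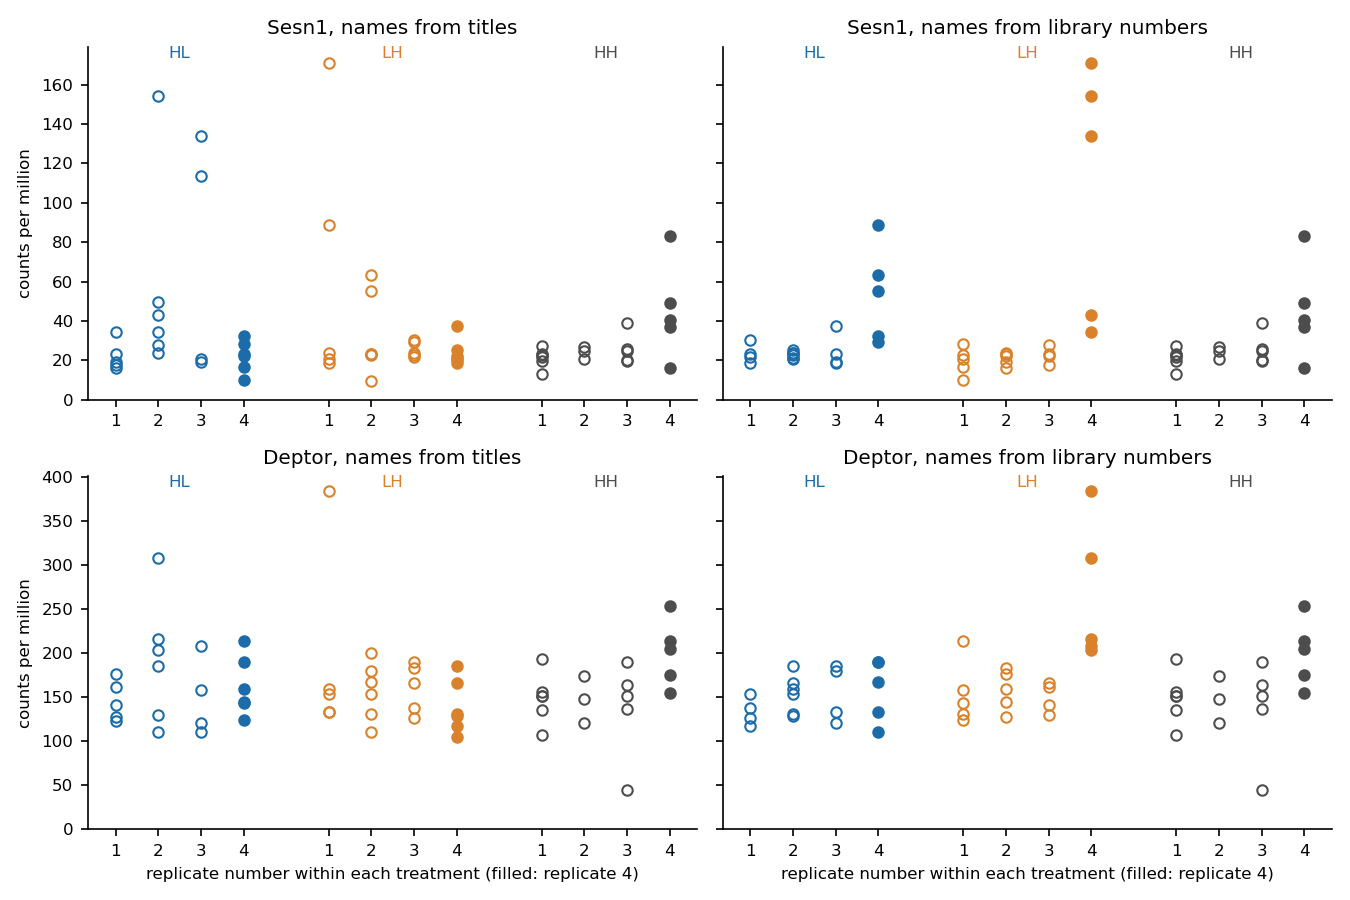
CPM of Sesn1 (top) and Deptor (bottom) by replicate number within each treatment, named by sample titles (left) and by library numbers (right), with filled points for replicate 4. On the right the high Sesn1 libraries gather in replicate 4 of every treatment, up to 171 CPM, while on the left the highest of HL and LH are in replicates 1 to 3, and HH is the same on both sides.

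Both sequencing runs gave the high Sesn1 levels. In the highest library, the first run gave 180 CPM and the second 163 CPM, and in the next 150 and 158 CPM. The share of reads on no annotated feature had a median of 21.6% in replicate 4 of HL by number and 21.5% in the other HL libraries. In LH by number it was 22.5% and 22.1%, and in HH 22.9% and 21.7%, with ranges that overlapped in all 3 treatments. Other features moved with high Sesn1 or with replicate 4, and their part in the result was not tested. The libraries with the 4 highest Sesn1 levels (171, 154, 134 and 113 CPM) were among the 7 with the lowest median correlation with the other libraries (0.827, 0.895, 0.917 and 0.862). The summed level of 10 fibroblast markers had a median of 21311 CPM in replicate 4 of LH by number and 29950 CPM in the others. For the 3 endothelial markers, a sum that is almost all Kdr, it was 72.3 and 179 CPM. Leukocyte markers had a median of 3.23 and 4.54 CPM. Of the lists of genes known to respond to signals that also reach Sesn1 or Ddit4, 8 p53 targets had summed medians of 303 and 306 CPM, the glucocorticoid targets had 748 and 232.4 CPM, the ATF4 targets 1217 and 715 CPM and the hypoxia targets 228.4 and 175 CPM. In HH the glucocorticoid targets had 311 CPM in replicate 4 and 260 CPM in the others, and the ATF4 targets had 931 and 690 CPM. There p53 targets had 333 and 313 CPM and hypoxia targets 202 and 175 CPM. Fibroblast markers had 28632 and 30759 CPM in HH, endothelial 169 and 191 and leukocyte 3.43 and 3.70, and all these HH ranges overlapped. In HL by number the 3 marker sums were 23549 and 30520.5, 134 and 205, and 3.73 and 3.47 CPM. The p53, glucocorticoid, ATF4 and hypoxia targets had 322, 463, 917 and 200 CPM there, and 303, 260, 720 and 183 CPM in the others.

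Deptor, Tsc1 and Ddit4 were also often highest in replicate 4 by library numbers. Replicate 4 was the highest library in 13 of 15 collections for Deptor, 11 of 15 for Tsc1 and 10 of 15 for Ddit4. Rps6kb1 was lowest in 9 of 15 and highest in 0. By titles replicate 4 was highest in 8 of 17 collections for Deptor, 6 for Tsc1, 5 for Ddit4 and 3 for Rps6kb1. It was lowest by titles in 4 for Deptor, 5 for Tsc1, 5 for Ddit4 and 6 for Rps6kb1. No tally over all genes stands beside these counts. Each collection held few libraries, so 1 number can often be the highest by chance. By library numbers in LH the log2 fold change of replicate 4 was 0.95 (SE 0.13) for Deptor, 0.74 (SE 0.17) for Tsc1, 0.58 (SE 0.17) for Eif4ebp1 and 0.55 (SE 0.13) for Ddit4, and with Sesn1 5 of the 10 genes were called higher, where 14.7% of all genes were. In HL, Ddit4 (0.60, SE 0.13) and Sesn1 were called higher, where 5.68% of all genes were, and Rps6kb1 lower (-0.31, SE 0.10), where 6.86% were. For Mtor, Rptor, Rheb and Tsc2 no such call was made.

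Correlation of log2(CPM + 1) between pairs of the 10 genes was computed over the 62 libraries for all 45 pairs. At an adjusted p under 0.05 over the 45 (Spearman, 100000 permutations), 3 pairs were called. This count depends on the scaling and on 1 library: 9 pairs were called with TMM library sizes and 8 without the LH library of 104912 counts. Rheb with Eif4ebp1, Rheb with Ddit4, Tsc1 with Sesn1 and Rps6kb1 with Ddit4 (rho = -0.43 with TMM library sizes) were called in both and not in the count of 3. No share over pairs of other genes stands beside these counts, so they do not show a trait particular to the pathway. Ddit4 and Eif4ebp1 were positively correlated (Spearman's rho = 0.65, Pearson's r = 0.63, permutation p = 1e-05 for both, the smallest these permutations can give, adjusted p = 0.00045 and 0.000225). Within HL rho was 0.47, within LH it was 0.77 and HH gave 0.66, and r was 0.63 without the 2 libraries farthest from the median of the first gene. REDD1 and 4E-BP1 both restrain protein synthesis. Each of the 2 genes had a higher rho with a gene outside the 10 (Ddit4 0.78 with Cox6a1, Eif4ebp1 0.73 with Psmb3).

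Rptor and Eif4ebp1 were negatively correlated (rho = -0.40, permutation p = 0.00126, adjusted p = 0.0284; r = -0.47, permutation p = 0.00022, adjusted p = 0.00198). HL gave a rho of -0.25, LH -0.30 and HH -0.73, and r was -0.33 without the 2 farthest libraries. Mtor and Rps6kb1 gave rho = 0.39 (permutation p = 0.00189, adjusted p = 0.0284) and r = 0.31 (permutation p = 0.0196, adjusted p = 0.0463), with r falling to 0.22 without the 2 farthest libraries, on which the linear relation partly rests. With TMM library sizes this pair had a rho of 0.25 (adjusted permutation p = 0.132) and was not called. Without HH collection 6 replicate 3, 4 pairs were called: these 3 (rho = 0.66, -0.39 and 0.37) and Tsc1 with Sesn1 (rho = 0.39). All pairs share the libraries and their depth, and Eif4ebp1 had a rho of -0.32 with the library total.

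**Figure D5:**
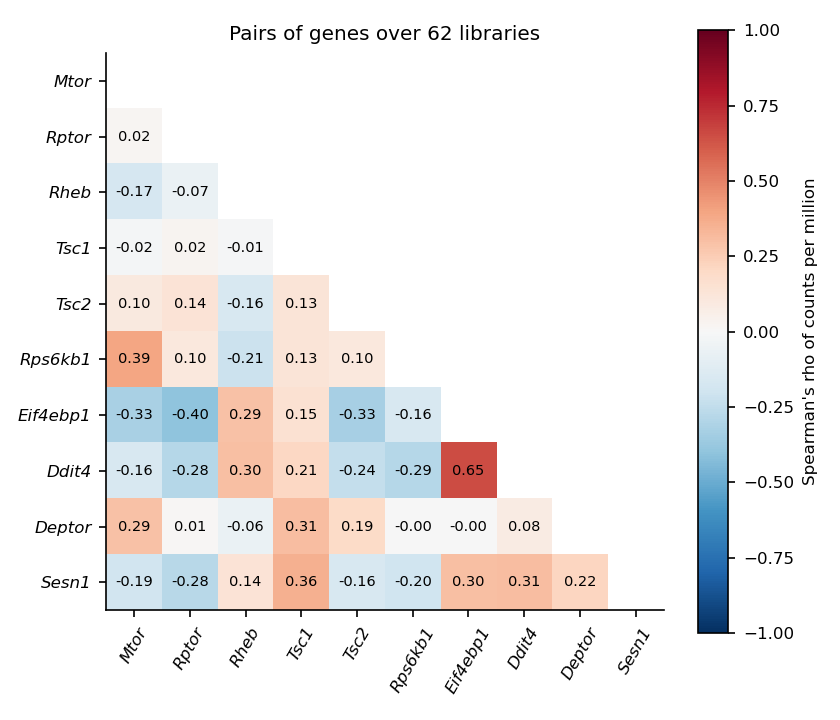
Spearman's rho of CPM for the 45 pairs of the 10 genes over 62 libraries, with the value written in each cell and red for positive. The strongest cell is that of Ddit4 and Eif4ebp1 (0.65), followed by Rptor and Eif4ebp1 (-0.40) and Mtor and Rps6kb1 (0.39).

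Likeness to other genes was described by Spearman's rho of log2(CPM + 1) over the 62 libraries among 7780 genes with a mean of at least 10 CPM, with no test. Sesn1 was most like Maf (rho = 0.80), a transcription factor, and Ranbp3l (0.79). In replicate 4 of HH, Maf had a median of 592 CPM and in the other HH libraries 345 CPM. Ddit4 was most like Cox6a1 (0.78), a subunit of cytochrome c oxidase, and S100a4 (0.76). Eif4ebp1 was most like the proteasome gene Psmb3 (0.73) and Zfand3 (0.72), and Rps6kb1 was most like the collagen gene Col8a1 (0.75) and Kdr (0.72). Deptor was most like Hdlbp (0.70) and the lysosomal protease gene Ctsd (0.69). For Rheb they were Ppp3r1 (0.68) and Ube2d3 (0.67), and for Mtor Tbc1d32 (0.63) and Cdc42bpa (0.62). Lower values were found for Tsc1 with Scaf8 (0.59) and Edem3 (0.55), Tsc2 with Gdf11 (0.52) and Ccdc136 (0.50) and Rptor with Pus7 (0.48) and Acp2 (0.48).

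Other genes of the pathway were examined as 3 lists. Of 11 genes of the mTOR complexes and their assembly, all tested, 0 changed over collections in HH or HL and 1, Prr5l, changed in LH (adjusted p = 0.0196), where 2.93% of all genes did. Of 26 tested genes of amino acid sensing at the lysosome, 0 changed in any treatment by the F test, and the GATOR2 gene Wdr24 was called rhythmic in HL, where 0.474% of all genes were. Of 14 tested substrates and translation targets, 0 changed by the F test, and Larp1, a regulator of ribosomal protein mRNAs, was called rhythmic in LH, where 0.918% of all genes were. These 3 genes are named because they were called, after their values were seen. In HH, 0, 4 and 0 genes of the 3 lists had an unadjusted p under 0.05, where 8.61% of all genes did. In none of these lists was a mean level called between treatments. The median F for change over collections in HH was 1.15 for the 10 genes and 0.88, 1.05 and 1.15 for the 3 lists, and it was 0.957 for all genes tested. The median log2 fold change for HH minus HL was -0.07 for the 10 genes and -0.08, -0.06 and 0.05 for the lists, where that of all genes was 0.00. No list was tested as a whole.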

How the data were processed

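Per the labels and the methods of the study, 3' end libraries were sequenced in 2 runs, and the authors deposited raw read counts per gene. STAR 2.6.0a, HTSeq 0.9.1 and mm10 are named in the submitters' processing notes. The 121 count tables were summed over runs to 62 libraries, of which 59 had both runs. Reads on no annotated feature (18.4% to 29.1%) stayed out of library sizes. Groups came from the sample titles, and names by library number (57 libraries) were an alternative. Change over collections, mean levels with collection as a term, and differences of 24 h rhythms were fitted over all 13292 genes with edgeR 4.0.16 (TMM, quasi-likelihood F test, Benjamini-Hochberg adjustment), with DESeq2 1.42.0 as an alternative. Rhythms were tested with an exact JTK test on CPM, with a 24 h cosine fit in edgeR as an alternative. The tests of change over collections and rhythm in HH, of level in LH against HL and of the rhythm difference in HH against HL were tried on simulated data. P-values measure the spread between libraries, and what a replicate number marks (a culture, a day or a chip) is not given in the sources used here. Members and gene lists were chosen with earlier results of these data known. The rule for named genes took all 10 members, the 2 genes most like each, and up to 3 genes of each other list that changed in HH, of which the pathway lists had none, so that the 3 named from them were chosen after their values were seen.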

Additional observations from a re-analysis of the deposited data

Results flagged for a closer look

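In the 90 groups of 4 libraries (10 genes in each treatment and collection with 4), 11 held a library far from the other 3 by the gap to its nearest neighbour over the range of the group, above Dixon's critical value. Chance flags about 1 in 20 groups. In LH by titles these were Ddit4 in collection 4 replicate 2 at 91.9 CPM (others up to 48.4) and in collection 5 replicate 4 at 43.6 CPM (others from 53.01), Deptor in collection 5 replicate 2 at 168 CPM (others up to 133), Mtor in collection 4 replicate 2 at 8.00 CPM (others from 18.3) and Rps6kb1 in collection 3 replicate 2 at 93.5 CPM (others up to 70.0). Sesn1 was flagged in LH collection 5 replicate 2 at 63.4 CPM (others up to 21.7), in HL collection 4 replicate 2 at 42.9 CPM (others up to 22.1) and in HL collection 6 replicate 3 at 134 CPM (others up to 27.9), and by library number all 3 are replicate 4. In HL, Rps6kb1 was low in collection 2 replicate 3 at 49.6 CPM (others from 69.4). In HH, Mtor was high in collection 1 replicate 3 at 21.5 CPM (others up to 15.8) and Tsc1 in collection 6 replicate 4 at 38.2 CPM (others up to 20.4). The cause of these values was not tested.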

How the results depend on the processing

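Over all alternatives, 29 counts of called genes or pairs moved by more than 1.5 times and the others did not. With no filter on low counts, 1 gene (Sesn1) changed over collections in HL and 1 (Sesn1) in HH, and 2 (Deptor and Sesn1) in LH, where 3.08%, 2.4% and 6.05% of all genes did. In LH, 2 (Tsc1 and Sesn1) changed in the second run alone (7.11% of all genes), and leaving out each replicate gave 0 to 1 (Deptor without LH replicate 4, with 5.35% of all genes). At an unadjusted p under 0.01, 1 (Rheb, resting on HH collection 6 replicate 3) was called in HH, where 2.92% of all genes were. At JTK P under 0.05, 1 (Ddit4) was called in HH (3.72%). At an unadjusted p under 0.05, the rhythm of 2 genes differed in each pair.

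For mean levels, Rps6kb1 was called in HH against HL and in HH against LH with the first run alone, with library totals without TMM, with DESeq2, without HH collection 6 replicate 3 by titles or by library numbers, and by library numbers with the replicate block. Between 0.833% and 1.39% of all genes were called for HH against HL in these fits and between 0.873% and 2.34% for HH against LH. Leaving out each replicate gave 0 to 1 for both pairs: 1 without LH replicate 2, where 1.16% and 0.644% of all genes were called, and 1 without HH replicate 3, where 1.03% and 0.741% were. Its log2 fold change lay between 0.14 and 0.24 for HH minus HL over all alternatives and between 0.13 and 0.21 for HH minus LH. By library numbers with the replicate block, an alternative added after seeing the data, Tsc1 was also called for LH against HL (1 gene, where 1.91% of all genes were) and for HH against LH (2 genes with Rps6kb1, where 2.34% were). Sesn1 for LH minus HL turned from -0.13 to 0.49 by library numbers, also without HH collection 6 replicate 3 (0.49), to 0.25 with the block there, to 0.20 and 0.13 without HL replicate 2 or 3 and to 0.05 without LH replicate 4, and leaving out each replicate gave -0.49 (without LH replicate 1) to 0.20. The cause was not tested. Pairs of correlated genes rose from 3 to 4 without HH collection 6 replicate 3, to 8 without libraries under 1000000 counts and to 9 with TMM library sizes, where Mtor with Rps6kb1 was no longer called.

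The labels share replicate numbers between groups. Deviations of same-numbered libraries had a median correlation of 0.00149 by titles, where different numbers had -0.000491. By library numbers it was 0.160, with most of the 365 pairs over 0.1, where different numbers had -0.0369, and pairs both numbered 4 had 0.332 (98 of 105). In HH, where the names agree, it was 0.0774 and -0.0176. Whether the numbers pair the samples thus depends on the names used. Not every pair was over 0.1 under either, and by that strict rule the main fits were left unblocked. By library numbers the block mattered. Without it 0.394%, 1.05% and 0.803% of all genes changed over collections in HL, LH and HH. With it, a fit added after seeing the data, 0.977%, 3.49% and 2.14% did. With the replicate block by titles 0 of the 10 genes were called in any test, where 0.226% to 3.14% of all genes were called over collections, 0.745% to 1.04% for levels and 0.00752% to 0.0527% for rhythm differences. Depth limits the LH library of 104912 counts, and groups of 2 libraries at HH 12 h limit its SD.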
